A study of Mus musculus with 4 samples.

Results

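The core stem cell transcription factors are 10 genes, Gata2, Runx1, Tal1, Lmo2, Lyl1, Fli1, Erg, Meis1, Mecom and Etv6, taken by gene symbol from the 18194 genes that the platform annotation names on the array. Every probe set whose annotation gave exactly 1 of these symbols was used, which came to 23 of 45101 probe sets. A probe set is a group of short oligonucleotides that are read together as 1 signal on an Affymetrix array. For each gene the probe set of highest mean log2 signal is called the brightest probe set and stands for the gene.

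The RNA came from cells sorted as Lin-Sca-1+c-Kit+, called LSK, the bone marrow fraction that contains blood stem cells and their earliest progeny. Of the 4 arrays, 2 are of LSK cells from mice that carried necdin null fetal liver cells, and 2 of LSK cells from mice that carried wild type fetal liver cells. All mice are labelled C57BL/6, all were reconstituted by fetal liver cells, and all were irradiated with 6.5 Gy, a sublethal dose, so no unirradiated cells are compared here. The age of the mice, the time between irradiation and collection, and whether LSK cells left over from the host were kept apart from donor cells are not given by the labels. It is also not stated whether the replicates came from separate animals, so p-values reflect no more than the spread among these 4 arrays, part of which can be technical. Precision is limited by this number of arrays.

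Blood stem cells are held in their state by transcription factors that bind many of the same enhancers and regulate one another's genes. Gata2 encodes a zinc finger factor, Tal1 and Lyl1 encode related basic helix-loop-helix factors, and Lmo2 encodes a LIM protein that does not bind DNA but joins the helix-loop-helix and GATA factors into 1 complex. Runx1 encodes the DNA-binding subunit of core binding factor, and Fli1 and Erg encode closely related activators of the ETS family. These genes are together often called the heptad. Meis1, a homeodomain partner of HOX and PBX proteins, Mecom, a zinc finger protein also known as Evi1, and Etv6, an ETS family repressor, are each needed to maintain adult stem cells in the mouse.

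Ndn, the gene that encodes necdin, was lower on both necdin null arrays. Its brightest probe set, 1437853_x_at, gave signals of 55.4 and 105 in necdin null cells, against 253 and 255 in wild type cells, so that both necdin null values stayed above the filter on low values (a signal of 30.3). Probe set 1435382_at gave 2.73 and 12.1 in necdin null cells, against 559 and 392 in wild type cells. All 5 of its 8 probe sets that passed the filter on low values were lower in necdin null cells, by log2 differences between -1.68 and -5.89. Apart from the brightest, these had both necdin null values under 30.3. They passed the filter only through the wild type arrays, so they had to be lower and their count shows nothing. Of the Ndn probe sets below the filter, 1456575_at had a higher mean log2 value in necdin null cells (28.0 and 2.98, against 1.54 and 5.99). The others below the filter had a lower one. The labels do not say which part of Ndn was deleted, so a probe set outside it would check nothing. Array medians were 61.4 and 62.4 for necdin null, against 53.8 and 63.2 for wild type. The ratio of the 3' to the 5' Gapdh control, a sign of RNA integrity, was 10.96 and 15.8 for necdin null, against 9.96 and 11.7 for wild type.

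All 10 factors were measured well above the filter on low values, which lay at a signal of 30.3. Of the surface genes of the LSK gate, 5 were at or above the filter too (Kit, Cd34, Flt3, Slamf1 and Procr), while Ly6a was not analysed here. Between genotypes none of the factors passed the test. With limma and Benjamini-Hochberg adjustment over all 12680 genes tested, 0 of 10 factors were called, against 0% of all genes, and the adjusted p of the 10 factors was 0.999 or higher. Ndn was not called in this fit either. Over all probe sets, the limma adjusted p of Ndn was 0.996 for 1437853_x_at and 0.413 for 1435382_at. A count of 0 therefore does not show that a factor was unchanged. With the replicate number as a block the count of factors was again 0 of 10, against 0.0237% of all genes (3). At an unadjusted p under 0.05 there were 0 of 10 factors, against 3.02% of all genes (383). In necdin null minus wild type cells, 5 factors had a higher mean log2 value and 5 a lower one, while 45.9% of all genes had a higher one. The median difference was -0.032 over the 10 factors and -0.031 over all genes. The median size of the difference, its sign set aside, was 0.25 for the factors and 0.21 for all genes.

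**Figure D1:**
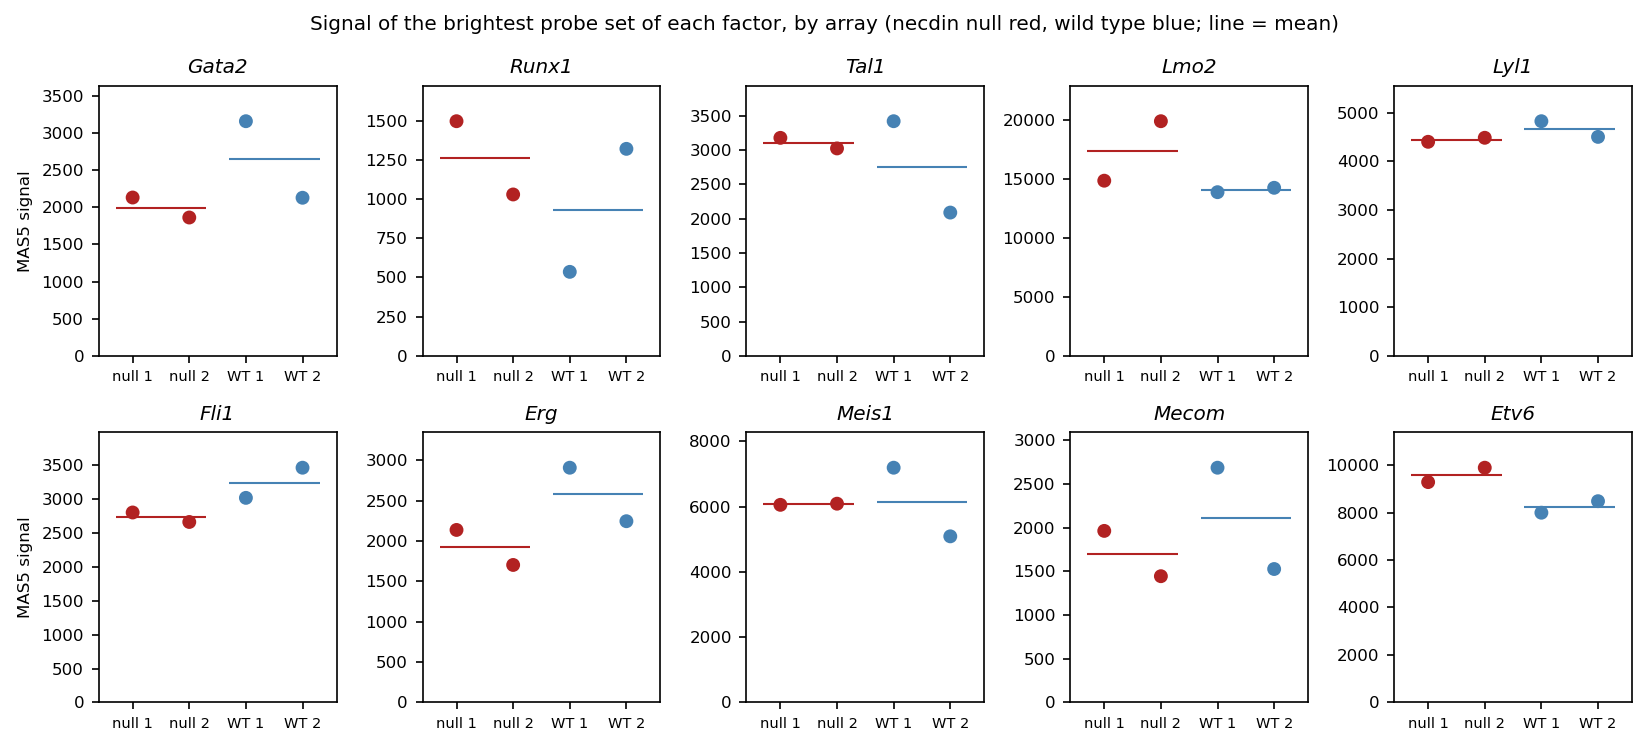
MAS5 signal (vertical axes, linear from 0, scaled separately for each gene) of the brightest probe set of each factor on the 2 necdin null arrays (red) and the 2 wild type arrays (blue), with a line at each group's mean. The groups lie apart for Lmo2 and Etv6 (necdin null higher) and for Lyl1, Fli1 and Erg (necdin null lower), and wild type replicate 1 is the highest array for 6 of the 10 genes.

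In the plot of signals by array, the groups did not overlap for 5 of the 10 factors, higher in necdin null cells for 2 and lower for 3. Over all genes the groups did not overlap for 30.5%, with 12.8% higher and 17.7% lower. With 2 arrays a group, 0.333 is the smallest two-sided p of an exact permutation test, so separation of the arrays of a single gene cannot pass a threshold on its own. In these bulk samples fewer cells of a type and less RNA per cell cannot be told apart.

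Gata2, which is needed for the survival and self-renewal of stem cells, had lower values in necdin null cells by both of its probe sets. The brightest, 1450333_a_at, gave 2132 and 1863 in necdin null cells, against 3158.5 and 2128 in wild type cells. Wild type replicate 1 stood high, and the lower wild type array lay just under the higher necdin null array, so the groups overlapped. The log2 difference was -0.38 with a standard error of 0.23 and a 95% interval from -0.90 to 0.14 (limma adjusted p = 0.999). The second probe set, 1428816_a_at, gave 777 and 888 in necdin null cells, against 1064 and 1252 in wild type cells, which did not overlap. Its difference was -0.47 with a standard error of 0.22, and it did not pass over the 27061 probe sets tested (limma adjusted p = 0.996). Leaving out wild type replicate 1 brought the difference of the brightest probe set to -0.095, and leaving out wild type replicate 2 brought it to -0.66.

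RefSeq gives Gata2 a distal and a proximal start, and their windows of 300 bases (250 before and 50 after each start) are shown because Gata2 is the factor whose probe sets, both well above the filter, were both lower. They are written 5′ to 3′ on the strand of the gene, from build GRCm38.p6, with capitals for letters that these factors are known to bind: for GATA factors AGATAA or TGATAA, for ETS factors CCGGAA or AGGAAG, for Tal1 and Lyl1 with their partners CAGCTG or CAGATG, for Runx1 TGTGGT or TGCGGT, and for Meis1 TGACAG, each on either strand. The distal window, chr6:88193641-88193940 on the plus strand, holds none of them, and the proximal window, chr6:88198414-88198713 on the plus strand, holds a CAGCTG as its 1 match.
Gata2 distal: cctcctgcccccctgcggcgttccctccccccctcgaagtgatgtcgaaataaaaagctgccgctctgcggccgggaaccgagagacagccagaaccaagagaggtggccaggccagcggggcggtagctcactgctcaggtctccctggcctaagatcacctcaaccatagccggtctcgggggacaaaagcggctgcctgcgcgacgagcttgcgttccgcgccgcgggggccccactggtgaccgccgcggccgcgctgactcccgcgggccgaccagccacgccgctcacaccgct
Gata2 proximal: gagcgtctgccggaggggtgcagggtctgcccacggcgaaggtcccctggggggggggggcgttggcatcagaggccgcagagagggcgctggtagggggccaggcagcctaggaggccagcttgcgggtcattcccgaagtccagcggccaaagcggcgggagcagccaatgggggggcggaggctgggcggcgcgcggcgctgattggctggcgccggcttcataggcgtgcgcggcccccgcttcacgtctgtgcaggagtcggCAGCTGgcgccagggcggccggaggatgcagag

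Tal1 and Lyl1, the helix-loop-helix pair known to overlap in function in adult mouse stem cells, each have 1 probe set. Tal1 gave 3179 and 3025 in necdin null cells, against 3422 and 2090 in wild type cells. The necdin null arrays lay between the wild type arrays. The difference was 0.21 with a standard error of 0.25, and it was -0.14 without wild type replicate 2. Lyl1 had the smallest standard error of the 10 (0.18), with 4401 and 4484 in necdin null cells, against 4824 and 4502 in wild type cells. The groups were apart, but by a margin smaller than the distance between the wild type arrays. The log2 difference was -0.069 with a 95% interval from -0.47 to 0.34, and it was -0.019 without wild type replicate 1. Leaving out wild type replicate 2 gave -0.12.

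Lmo2, the bridging protein of the complex, also has a single probe set. It gave 14831 and 19866 in necdin null cells, against 13859 and 14230 in wild type cells. The groups did not overlap, and necdin null replicate 2 alone stood high. That array also had the highest 3' to 5' Gapdh ratio, and its brightest 1% of probe sets held 37.4% of all signal, while necdin null replicate 1 had 28.9% and the wild type pair 29.4% and 30.6%. The part of these in the Lmo2 value was not tested. The log2 difference of Lmo2 was 0.29 with a standard error of 0.22, and 0.079 without necdin null replicate 2. Under median centring it was 0.21 and under quantile normalization 0.15.

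Runx1 had 6 probe sets, all at or above the filter, and they did not point the same way. The brightest, 1422864_at, gave 1496 and 1029 in necdin null cells, against 536 and 1320 in wild type cells. Only wild type replicate 1 was low, and wild type replicate 2 lay between the necdin null arrays. The log2 difference was 0.56 with a standard error of 0.39, and its 95% interval from -0.34 to 1.45 was the widest of the 10 factors. The difference was 1.47 for the replicate 1 pair and -0.36 for the replicate 2 pair. Without wild type replicate 1 it was -0.089.

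The other 5 Runx1 probe sets had negative differences, between -0.20 and -0.82. Of these, 1440878_at gave 733 and 849 in necdin null cells, against 930 and 888 in wild type cells, with groups apart and a difference of -0.20 with a standard error of 0.22. Probe set 1422865_at gave 205 and 217 in necdin null cells, against 344 and 210 in wild type cells, which overlapped. The remaining 3 were dim, and their groups overlapped; 1452531_at had 93.7 and 56.5 in necdin null cells, against 84.8 and 202 in wild type cells. None of the 6 passed (limma adjusted p = 0.996 for each). With the mean over all 6 probe sets in place of the brightest, the Runx1 difference was -0.36, so its direction depends on the probe set.

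Runx1 is known to be transcribed from a distal and a proximal promoter, and its 2 RefSeq windows are shown because its probe sets disagree; the positions of the probe sets in the transcripts were not used here. The distal window, chr16:92826025-92826324 on the minus strand, holds 2 matches to TGTGGT, both read as ACCACA on the strand shown and both after the start, and 1 AGGAAG. The proximal window, chr16:92697280-92697579 on the minus strand, holds 1 CCGGAA. None of the matches in the windows printed here overlap.
Runx1 distal: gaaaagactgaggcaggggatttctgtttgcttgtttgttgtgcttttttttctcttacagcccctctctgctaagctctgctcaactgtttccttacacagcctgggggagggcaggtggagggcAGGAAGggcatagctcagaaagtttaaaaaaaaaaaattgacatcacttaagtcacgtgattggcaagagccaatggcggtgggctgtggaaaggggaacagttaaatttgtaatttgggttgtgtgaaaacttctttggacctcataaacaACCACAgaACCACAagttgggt
Runx1 proximal: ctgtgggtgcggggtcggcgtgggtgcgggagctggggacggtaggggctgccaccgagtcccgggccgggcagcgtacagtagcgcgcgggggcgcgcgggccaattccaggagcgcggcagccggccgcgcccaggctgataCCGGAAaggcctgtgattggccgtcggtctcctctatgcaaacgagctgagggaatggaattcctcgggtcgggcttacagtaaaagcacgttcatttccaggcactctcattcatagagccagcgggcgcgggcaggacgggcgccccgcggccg

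**Figure D2:**
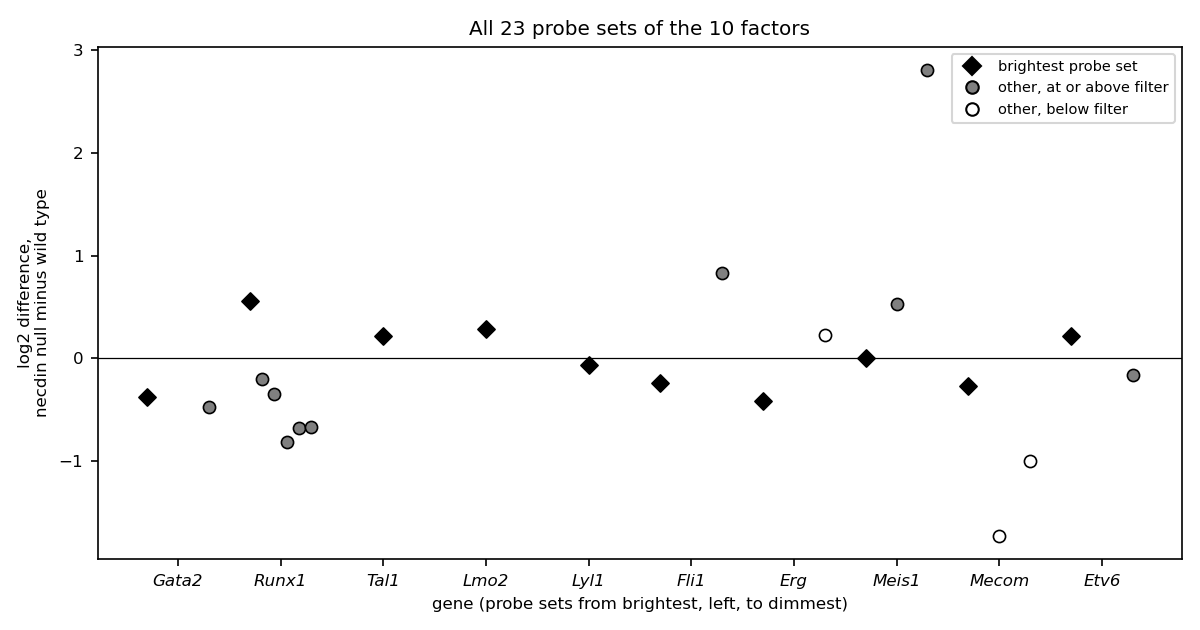
Log2 difference, necdin null minus wild type (vertical axis), of all 23 probe sets of the 10 factors, ordered within a gene from brightest to dimmest; diamonds mark the brightest probe set and open circles those below the filter on low values. Runx1, Fli1 and Etv6 have probe sets above the filter on both sides of 0, and the dim Meis1 probe set 1459423_at lies far above the others at 2.81.

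Fli1 and Erg, the ETS activators, both had lower brightest values in necdin null cells. Erg, by 1440244_at, gave 2137 and 1703 in necdin null cells, against 2908 and 2245 in wild type cells. The groups did not overlap, and the difference was nearly the same for the replicate 1 pair (-0.44) and the replicate 2 pair (-0.40). Over all 4 arrays it was -0.42 with a standard error of 0.22 and a 95% interval from -0.91 to 0.070, the smallest unadjusted limma p of the 10 factors (0.084, adjusted p = 0.999). It was -0.24 without wild type replicate 1, -0.26 without necdin null replicate 2 and -0.61 without wild type replicate 2. With the mean over both Erg probe sets it was -0.0996. The second Erg probe set, 1425370_a_at, was at most 10.2 on every array and thus below the filter.

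Erg has 3 RefSeq start windows. Start 3, chr16:95459299-95459598 on the minus strand, is shown because it holds the most matches of the 14 windows found for 8 of the 10 factors: 2 to TGACAG, 1 to AGATAA and 1 to AGGAAG. The other 2 Erg windows hold none. No window was given for Lmo2 or Fli1.
Erg start 3: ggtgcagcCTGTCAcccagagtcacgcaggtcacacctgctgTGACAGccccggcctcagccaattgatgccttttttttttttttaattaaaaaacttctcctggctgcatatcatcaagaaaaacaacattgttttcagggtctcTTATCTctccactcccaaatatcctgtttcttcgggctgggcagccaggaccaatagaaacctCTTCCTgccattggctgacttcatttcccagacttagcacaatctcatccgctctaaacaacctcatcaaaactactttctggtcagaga
Over the 14 windows, GATA letters were found in 3, ETS letters in 6, Tal1 and Lyl1 letters in 3, Runx1 letters in 2 and Meis1 letters in 2. Over all 32851 windows of the same length they were found in 18.6%, 45.2%, 30.6%, 22.4% and 19.2%, in that order. These matches are descriptions of the letters and not binding sites.

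Fli1 was the second factor whose probe sets disagreed. The brightest, 1433512_at, gave 2802 and 2662 in necdin null cells, against 3018 and 3462 in wild type cells, with groups apart. Its difference was -0.24 with a standard error of 0.18, and -0.14 without wild type replicate 2. Probe set 1422024_at went the other way, with 1064 and 1210 in necdin null cells, against 561 and 724 in wild type cells. These groups were also apart, by a difference of 0.83 with a standard error of 0.24 and a 95% interval from 0.28 to 1.38. Its unadjusted p of 0.0088 did not pass over all probe sets (limma adjusted p = 0.996). The differences were -0.11 and 0.92 in the replicate 1 pair and -0.38 and 0.74 in the replicate 2 pair. With groups apart, any pairing of the arrays had to keep these directions. The mean over both was 0.29.

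Etv6, the repressor of the ETS family, was higher in necdin null cells by its brightest probe set, 1434880_at, with 9284 and 9890, against 7994 and 8480 in wild type cells. The groups did not overlap, and the difference was 0.22 in both pairs of the same replicate number. Over all 4 arrays it was 0.22 with a standard error of 0.19, which did not pass. The dimmer probe set, 1423401_at, gave 225 and 211 in necdin null cells, against 233 and 255 in wild type cells, a difference of -0.16 with a standard error of 0.34. Its direction was opposite, with groups again apart. The mean over both was 0.030.

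Meis1 had nearly the same mean in both genotypes by its brightest probe set, 1450992_a_at, with 6056 and 6091 in necdin null cells, against 7193 and 5090 in wild type cells. Both necdin null arrays lay between the wild type arrays, and the difference was 0.0052 with a 95% interval from -0.48 to 0.49. The second probe set, 1443260_at, gave 797 and 1594 in necdin null cells, against 1031 and 592 in wild type cells, which overlapped. The third, 1459423_at, gave 151 and 114 in necdin null cells, against 31.0 and 6.92 in wild type cells. Of the wild type values the first lay just above the filter of 30.3 and the other far below it, so this probe set passed the filter only through the necdin null arrays, where it was high. Its difference of 2.81 (standard error 0.74, unadjusted p = 0.0055, limma adjusted p = 0.996) was the largest of the 20 probe sets of the 10 factors above the filter. A fold between values this low rests on the pseudocount of 3.80 added before the logarithm. With the mean over all 3 probe sets the Meis1 difference was 1.11, which this probe set carries in large part.

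Mecom, by 1438325_at, gave 1963 and 1444 in necdin null cells, against 2686 and 1526.5 in wild type cells. The groups overlapped, and on both sides the replicate 1 array was the higher. The difference was -0.27 with a standard error of 0.29, and 0.14 without wild type replicate 1. The other 2 Mecom probe sets were below the filter; 1422295_at gave 6.37 and 5.84 in necdin null cells, against 14.8 and 54.1 in wild type cells, which did not overlap but lay near background. With the mean over all 3 probe sets the Mecom difference was -0.998.

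**Figure D3:**
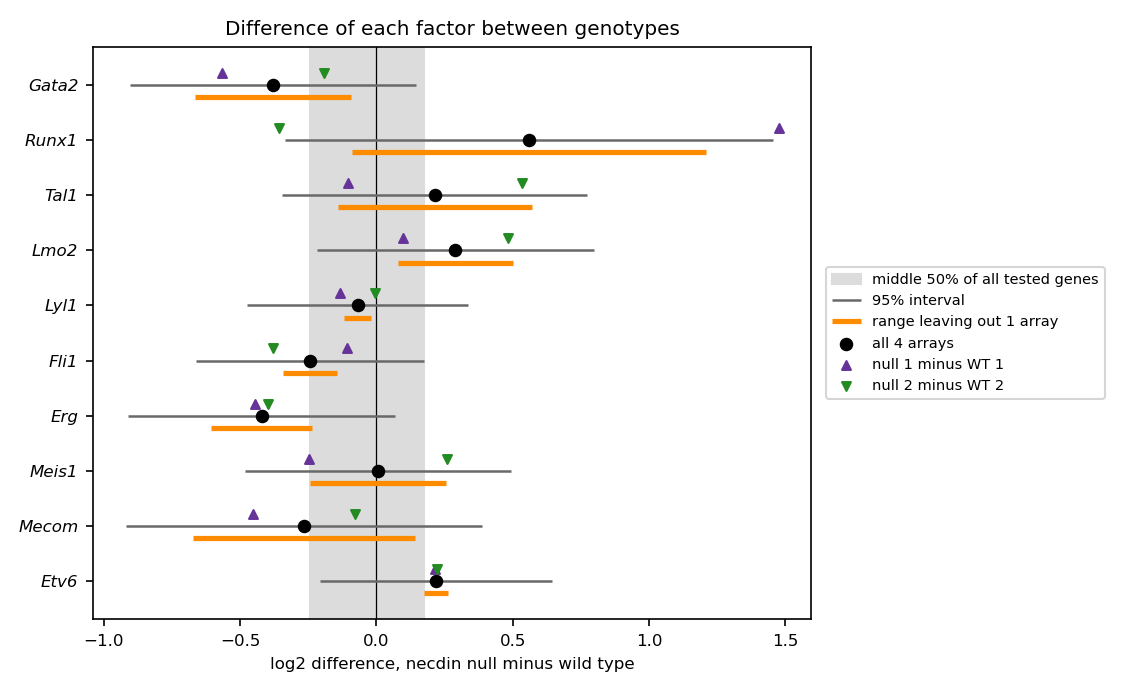
Log2 difference, necdin null minus wild type (horizontal axis), of the brightest probe set of each factor, with its 95% interval from limma (dark line), the range when 1 array is left out (orange line) and the differences between arrays of the same replicate number (triangles); the grey band holds the middle 50% of all 12680 tested genes. Every 95% interval includes 0, and leaving out 1 array carries Runx1, Tal1, Meis1 and Mecom across 0.

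As the plot of differences shows, all 10 of the 95% intervals of the brightest probe sets included 0. For 9 factors, all but Runx1, the whole interval of the brightest probe set lay within a difference of 1 on the log2 scale either way. A change of 2-fold lay outside the interval of that probe set. Other probe sets of Fli1 and Meis1 had intervals that reached past 1. These were 0.28 to 1.38 for 1422024_at of Fli1, -0.37 to 1.42 for 1443260_at of Meis1 and 1.10 to 4.51 for 1459423_at of Meis1. A difference of the same sign in the replicate 1 pair and in the replicate 2 pair was found for 7 of 10 factors, against 50.8% of all genes. For the 5 factors with groups apart the sign had to be the same. The distance between the 2 wild type arrays exceeded the difference between genotypes for 6 of 10 factors, against 61.7% of all genes, and that between the 2 necdin null arrays did so for 3 of 10, against 63.7%. Wild type replicate 1 was the highest of the 4 arrays for Gata2, Tal1, Lyl1, Erg, Meis1 and Mecom, 6 of 10 factors, against 26.4% of all genes. Of the 5 genes of the LSK gate, Kit, Procr and Slamf1 were also highest there. Kit gave 6049 and 3744 in necdin null cells, against 6617 and 3976 in wild type cells. The part of the makeup of the sorted cells in these values was not tested.

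Where a gene had more than 1 probe set above the filter, agreement between them was limited, for the factors much as over the whole array. Of the 5 such factors, 2 had all probe sets on 1 side of 0 (Gata2 and Meis1), while 42.3% of the 5786 such genes on the array did. For Meis1 this rests on a brightest value of 0.0052, which turned negative under 4 of the 15 alternatives, and on 1459423_at, so no direction is read from it. Over the 20 probe sets above the filter, 8 had a positive and 12 a negative difference. The groups did not overlap for 10 of the 20, against 31.4% of all probe sets. At an unadjusted p under 0.05 there were 2 of 20 (1422024_at of Fli1 and 1459423_at of Meis1), against 3.48% of all probe sets, and 0 of 20 were called, against 0%. Since 1459423_at passed the filter only through the group where it was high, it had to differ, and nothing is read from these counts.

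The factors work with cofactors, close relatives and targets, and none of those tested was called between genotypes. Of 33 proteins that bind the factors or repress and activate with them, 29 were tested, of which 11 had a higher and 18 a lower value in necdin null cells and 0 were called; the median log2 difference was -0.066, against -0.031 over all genes. The groups were apart for 3 higher and 6 lower of the 29, against 12.8% and 17.7% of all genes. The partners of smallest unadjusted p were all lower. Crebbp, a histone acetyltransferase that coactivates with Runx1 and Gata factors, gave 1313 and 1696 in necdin null cells, against 2307 and 2216 in wild type cells, which is -0.60 on the log2 scale (standard error 0.20). Kdm1a, the histone demethylase of the Gfi1b corepressor complex, gave 2267 and 2406 in necdin null cells, against 3487 and 2828 in wild type cells (-0.43, standard error 0.19). Zfpm1, the GATA cofactor FOG1, gave 727 and 671 in necdin null cells, against 1045 and 876 in wild type cells (-0.45, standard error 0.23). The groups of all 3 were apart, and the limma adjusted p was 0.999 for each.

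Of 21 family relatives of the factors, 14 were tested, with 6 higher, 8 lower, a median of -0.012 and 0 called. Those of smallest unadjusted p were Pknox1, a homeodomain relative of Meis1, at 827 and 702 in necdin null cells, against 365 and 746 in wild type cells, and the ETS genes Ets1 (-0.46 on the log2 scale, standard error 0.33) and Ets2 (-0.33, standard error 0.28). The groups overlapped for all 3. Of 28 genes known as targets of the factors in blood cells, 24 were tested, with 12 higher, 12 lower, a median of -0.00073 and 0 called. Zfpm1, which is on this list too, had the smallest unadjusted p. Cpa3, a mast cell protease gene activated by Gata2, gave 2297 and 1854.5 in necdin null cells, against 1870 and 1511 in wild type cells. Cbfa2t3, a corepressor of Tal1, gave 964 and 1307 in necdin null cells, against 1682 and 1160 in wild type cells. The groups of Cpa3 and Cbfa2t3 overlapped.

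**Figure D4:**
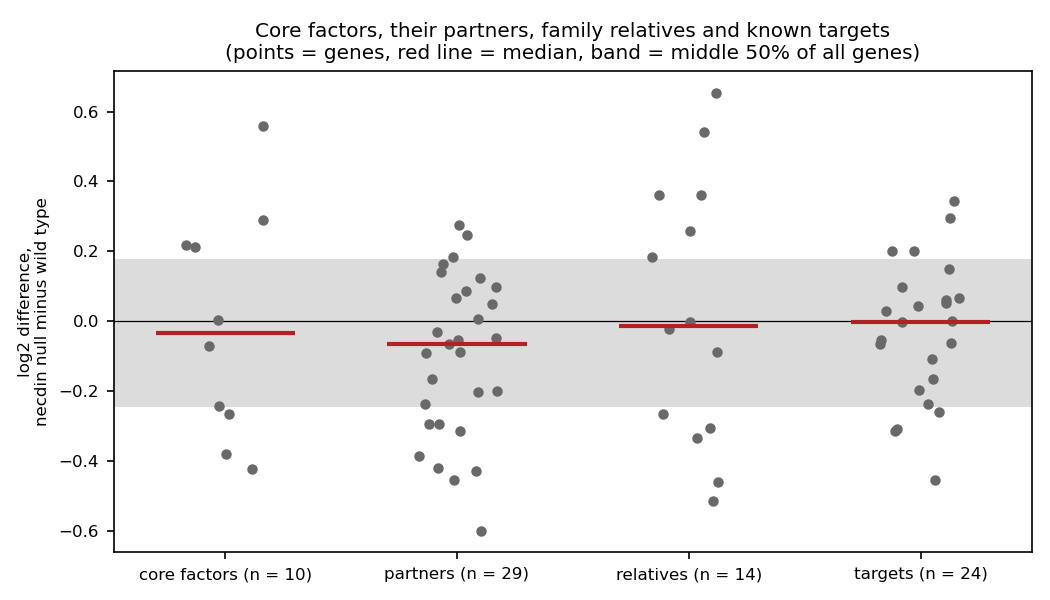
Log2 difference, necdin null minus wild type (vertical axis), of each tested gene among the 10 core factors, 29 partners, 14 family relatives and 24 known targets; each point is a gene, the red line is the median and the grey band holds the middle 50% of all tested genes. The medians lie between -0.066 and -0.00073, inside the band.

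Several factors are also expressed in other blood and vessel cells, so markers of those cells are given beside them. Endothelial genes, among which Tal1, Erg and Fli1 are normally high, had a summed signal, over the genes named on the array, of 3926 and 3244 for necdin null, against 3980 and 3841 for wild type, with 7 of 8 genes at or above the filter. Most of each sum came from Egfl7 (2074 and 2193 for necdin null, against 2141 and 2579 for wild type) and Esam (1039 and 652, against 1172 and 687). The defining endothelial gene Cdh5 was below the filter. Megakaryocyte genes, 7 of 7 above the filter, summed to 6435 and 7082 for necdin null, against 9204 and 6457 for wild type. The sum was highest on wild type replicate 1, as were 6 of the 10 factors (Gata2, Tal1, Lyl1, Erg, Meis1 and Mecom), against 26.4% of all genes. Runx1, Lmo2 and Etv6 were lowest on wild type replicate 1, and Fli1 was highest on wild type replicate 2. Most of the megakaryocyte sum on wild type replicate 1 came from Pf4 (5075) and Itga2b (2615). Most of the other genes of the list were not highest on that array. Mast cell and basophil genes, 4 of 8, summed to 3454 and 2609 for necdin null, against 2951 and 2806 for wild type. Erythroid genes, 5 of 8, summed to 3702 and 5293 for necdin null, against 4698 and 3683 for wild type. B lineage genes, 5 of 7, summed to 1065 and 1168 for necdin null, against 1097 and 1707 for wild type, and T lineage genes, 1 of 6, to 58.4 and 153 for necdin null, against 77.9 and 168 for wild type. Myeloid genes, 9 of 11, summed to 85689 and 182574 for necdin null, against 66107 and 125953 for wild type. In all of these lists the groups overlapped, and their part in the values of the factors was not tested.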

How the data were processed

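Gene expression was measured in LSK cells on 4 Affymetrix 3' arrays, 2 per genotype, grouped by the genotype label. The deposited intensity values were made with MAS5, per the submitters' processing notes, in a version not stated. They are linear, with a mean of 500.004 on every array after trimming 2% at each end; no detection calls were used. The platform annotation named the probe sets (34958 with 1 symbol, 932 with several, 9211 with none there).

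Values were analysed as log2(signal + 3.80), with a pseudocount at the 10th percentile of the table, so changes of low genes are understated. Genes, each by its brightest probe set, were kept at or above the 40th percentile of mean log2 value (signal 30.3). The genotypes were compared in limma 3.58.1 with R 4.3.3 (lmFit and trended eBayes, two-sided, threshold 0.05 after Benjamini-Hochberg adjustment over all genes), and likewise over all probe sets. The code was tested on simulated arrays. The members, lists and rules were chosen with earlier results of these data known. Named beside Ndn and the members were, per list, genes called or else the 3 of smallest unadjusted p, and marker genes where a list is described; Slamf1, Procr and Cdh5 were chosen after their values were seen. Alternatives changed pseudocount, filter, normalization, variance model and probe set, added the replicate number, or left out each array.

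Promoter windows come from RefSeq tables of build GRCm38.p6. Protein sequences were not used here.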

Additional observations from a re-analysis of the deposited data

How the results depend on the processing

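Across 15 alternatives, 0 of 10 factors were called under any of them, with limma adjusted p of 0.403 or higher. Gata2, Lmo2, Lyl1, Erg and Etv6 kept their direction wherever run, but many alternatives could not have reversed it. Changes of the filter and variance model, and the replicate number, left each difference as it was. For Lmo2, Lyl1, Erg and Etv6 the groups were apart, so leaving out 1 array could not turn the sign. Lmo2 and Lyl1 have a single probe set, so the mean of probe sets was the same value. Gata2 and Lmo2 gave no value without _s_at, _x_at and _a_at probe sets. A T lineage median was not had at the stricter filter, with the mean of probe sets or without wild type replicate 2. With the mean of all probe sets Runx1 turned to -0.36 and Fli1 to 0.29, while Meis1 moved to 1.11, Mecom to -0.998, Erg to -0.0996 and Etv6 to 0.030. Meis1 turned to -0.076 with median centring, -0.041 with quantile normalization and -0.039 with cyclic loess. Leaving out 1 array gave ranges of -0.089 to 1.21 for Runx1, -0.14 to 0.57 for Tal1, -0.67 to 0.14 for Mecom -0.24 to 0.26 for Meis1, -0.61 to -0.24 for Erg, -0.34 to -0.14 for Fli1 and -0.12 to -0.019 for Lyl1, and a median over the factors of -0.14 to 0.061. The number of factors with groups apart was 3 with median centring, 6 with quantile normalization and 7 with the mean of probe sets. Without _s_at, _x_at and _a_at probe sets it was 4 of the 8 factors run. It was 6 to 10 when 1 array was left out, where a group of 1 array separates more easily by construction. List medians moved in 26 of 162 list settings; that of the partners was -0.15 with median centring and -0.029 with quantile normalization, and that of the relatives 0.046 with quantile normalization. Over all genes, 0 were called, 3 with the replicate block (0.0237% of genes, none a factor; smallest adjusted p of a factor 0.895) and 0 to 4 when leaving out 1 array, the lone array being assumed to vary like the others. Same-numbered arrays deviated together at a correlation of 0.11 across genes with only 2 pairs, so numbers were not treated as pairing. The causes of these changes were not tested.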
